A study of Mus musculus with 7 samples.

Results

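The genes described here are those of glutathione, thioredoxin and peroxide defence, the enzymes and regulators with which a cell removes hydrogen peroxide, superoxide, lipid peroxides and reactive foreign compounds. A list of 43 such genes was matched to the array, and each gene was read from 1 probe set, the brightest on average over the 7 arrays of those annotated to that gene alone. This gave 39 genes of 12393 measured. Prdx1 and Glrx3 were met only by probe sets that carry a second symbol, and Prdx5 and Prdx6 were not analysed here.

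The samples were MN9D cells, a dopamine-producing mouse neuroblastoma line made by fusing embryonic midbrain cells with neuroblastoma cells. Per the labels, 4 arrays held RNA of cells made to overexpress both hemoglobin chains, alpha and beta, and 3 held RNA of cells with an empty vector, all on Affymetrix Mouse Genome 430A 2.0 arrays. The submitters set aside a further control array for its quality. Whether the lines were clones or pools, and which promoter drove the globins, is not given in the sources used here, nor whether replicates were separate cultures, so each p-value reflects spread among arrays that may be technical repeats.

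Glutathione is a tripeptide made from glutamate, cysteine and glycine, and its thiol serves peroxidases and transferases, after which glutathione reductase restores it with NADPH. Thioredoxin is a small protein with a redox-active pair of cysteines that feeds the peroxiredoxins and is itself restored by thioredoxin reductase, also at the cost of NADPH. Many genes of both systems respond to the transcription factor NRF2, which the adaptor KEAP1 holds at a low level until electrophiles or oxidants modify it. In dopamine neurons these systems meet the peroxide made when monoamine oxidase breaks down dopamine and the quinones formed when dopamine oxidises by itself.

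Values are RMA expression values on the log2 scale, and differences are globin-labelled minus empty vector, with the limma standard error after ± unless an SD is named (n = 4 and n = 3 arrays). A gene is said to have risen or fallen where the limma adjusted p over all probe sets was under 0.05. Array medians lay between 8.90 and 8.94, arrays correlated at 0.9985 or more within a group and at 0.9903 to 0.9917 across the groups, and empty vector array 1 and globin-labelled array 4 lay together at one end of the second principal component (5.96% of the variance). The alpha-globin label was met by the 3 probe sets that Hba-a1 shares with Hba-a2, of which the brightest read 8.77, 8.57 and 8.71 in the empty vector arrays and 14.55, 14.49, 14.49 and 14.57 in the globin-labelled arrays. The probe set shared by the adult beta-globin genes differed by 0.12 ± 0.06 and did not pass (limma adjusted p = 0.149). Of 2 probe sets of Hbb-b2 alone, 1 rose by 0.34 ± 0.07 (limma adjusted p = 0.00558) and the other differed by -0.05 ± 0.07. Single probe sets of Hba-a2 and Hba-a1 alone differed by -0.03 ± 0.05 and 0.03 ± 0.06. Since the probe sets of the beta chain did not move together, the arrays are called globin-labelled wherever a direction is given. Among markers of the labelled cell type, Th (11.78 and 11.08 in the 2 groups) and Ddc fell, 5 of 7 did not pass, and En1 and En2 lay under the 10th percentile of all probe sets. Of the marker lists of other cells, 0 of 7 astrocyte, 0 of 6 oligodendrocyte and 0 of 6 fibroblast genes passed in limma, 1 of 7 microglial genes fell (Cd68) and 1 of 5 erythroid genes rose (Slc4a1). At an unadjusted p under 0.05, 1 astrocyte gene (Gja1) and 1 oligodendrocyte gene (Mobp) were also below the threshold, and 0 of the fibroblast genes. The mean level of the microglial list was 6.10 to 6.15 in the empty vector arrays and 5.88 to 6.06 in the others, and that of the erythroid list was 7.17 to 7.33 and 7.23 to 7.34. The brightest gene of each list of other cells differed by 0.10 (Csf1r), 0.14 (Epor), -0.04 (Gfap), -0.06 (Cnp) and -0.02 (Dcn), none of them past the threshold. RMA values have no 0, and 8 of these 31 genes lay under the 10th percentile. Their part in the results below was not tested. In RNA from whole cultures a change in every cell and a change in the share of cells that express a gene cannot be told apart.

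Members of the antioxidant system moved both ways and mostly by small amounts. Of the 39 genes, 12 rose (30.8%) and 7 fell (17.9%), where 20.6% of all genes rose and 20.1% fell (40.7% called in either direction). The groups did not overlap at 24 members (61.5%, against 45.7% of all genes), 15 of them higher (23.1% of all genes) and 9 lower (22.6% of all genes). Only 4 members passed with a fold of at least 1.5, which is 10.3% against 5.28% of all genes: Gsto1, Ephx1 and Gstm1, which rose, and Prdx4, which fell. The median difference of the members was 0.08 and that of all genes 0.02, and the members' median came to 0.05 without empty vector array 1 and 0.04 without empty vector array 2. With both arrays at the end of the second principal component left out, a setting chosen after seeing the data, 10 members rose and 6 fell. The differences ran from -0.62 to 0.75. These shares describe a list whose members were chosen with earlier results of these data known, and no test of the list was made.

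**Figure D1:**
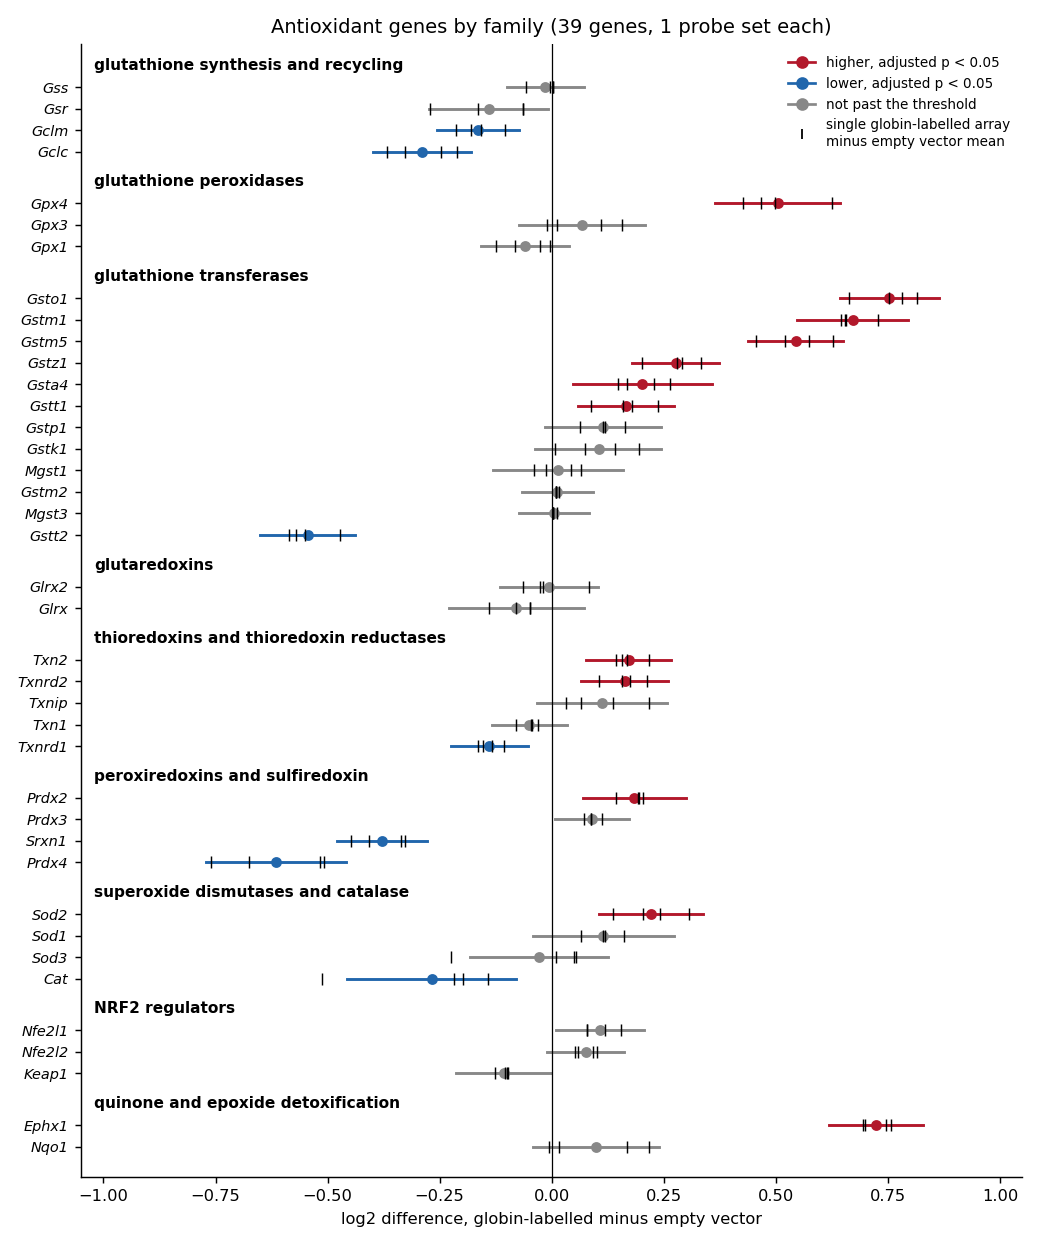
Log2 difference between globin-labelled and empty vector arrays (horizontal axis) for 39 antioxidant genes grouped by family. Points are the limma estimates, horizontal lines their 95% confidence intervals, and ticks the 4 globin-labelled arrays, each minus the mean of the 3 empty vector arrays; red genes rose, blue genes fell and grey genes did not pass. Gsto1, Ephx1 and Gstm1 lie farthest to the right and Prdx4 and Gstt2 farthest to the left.

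The regulators of the NRF2 pathway differed by at most 0.11 on the chosen probe sets and did not pass in limma (0 of 3, where 40.7% of all genes did). Keap1 and Nfe2l1 lay under an unadjusted p of 0.05. Nfe2l2, which encodes NRF2 itself (probe set 1416543_at), read 11.33, 11.27 and 11.29 in the empty vector arrays and 11.36, 11.40, 11.39 and 11.35 in the globin-labelled arrays. The groups did not overlap, with a margin of 0.02 between the nearest arrays, and the difference was 0.08 ± 0.04 (95% confidence interval -0.01 to 0.16, limma adjusted p = 0.147). Nfe2l1, a related factor that responds to proteasome and redox stress (1416331_a_at), differed by 0.11 ± 0.04 (limma adjusted p = 0.0801), and after quantile normalization of the arrays it passed with 0.13 (limma adjusted p = 0.0306). Keap1, the adaptor that directs NRF2 to degradation (1450746_at), differed by -0.11 ± 0.05 (limma adjusted p = 0.104). Its second probe set, 1450747_at, read 9.64, 9.76 and 9.75 against 9.57, 9.50, 9.46 and 9.31 and fell by 0.26 ± 0.06 (limma adjusted p = 0.0106). Without empty vector array 1 the first probe set of Keap1 passed too, at -0.15 (limma adjusted p = 0.0359), and so did the mean of both probe sets, at -0.18 (limma adjusted p = 0.0120). The groups did not overlap at any of these 3 genes, a trait shared with 45.7% of all genes.

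NRF2 binds the antioxidant response element, whose core was searched as TGACNNNGC on both strands in the RefSeq windows from 250 bases before to 50 bases after each annotated gene start (build GRCm38.p6). Windows were found for 37 of the 43 listed genes and not for Gclc, Gsr, Gsta4, Gstt2, Prdx6 and Sod3. The core was present in 8 of the 37. Among members with a value on the array it was present in 7 of 34 (20.6%), where 16.31% of 9882 measured genes with a window and 12.39% of all windows hold it. It stood in the windows of 3 of the 5 members that fell (Gclm, Txnrd1 and Srxn1), in 1 of the 11 that rose (Gstm5) and in 3 of the 18 that did not pass (Nfe2l2, Mgst1 and Sod1). Over all measured genes the shares were 18.1% of the genes that fell and 16.97% of those that rose. The 4 sites of members that changed and that of Prdx1 are printed because they let these members be compared by the letters of the core, which stand in capitals; each runs 5′ to 3′ along the strand that holds TGAC. 
Gclm, chr3:122245413-122245441, minus strand: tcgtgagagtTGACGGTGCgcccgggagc
Txnrd1, chr10:82859104-82859132, minus strand: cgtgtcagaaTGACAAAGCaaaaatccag
Srxn1, chr2:152105542-152105570, minus strand: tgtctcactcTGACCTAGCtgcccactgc
Gstm5, chr3:107895802-107895830, plus strand: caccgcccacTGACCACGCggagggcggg
Prdx1, chr4:116685456-116685484, minus strand: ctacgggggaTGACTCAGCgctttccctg
All 5 genes lie on the plus strand. The match of Gclm begins 134 bases before the annotated start, that of Txnrd1 92, that of Gstm5 42 and that of Prdx1 133, whereas that of Srxn1 begins 28 bases after it. Only the match of Prdx1, of the 8, overlaps the motif TGANTCA, which 7.81% of all windows hold. A match of letters is not evidence of binding, and elements outside these windows were not searched.

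Both subunits of the ligase that starts glutathione synthesis fell. Gclc, the catalytic subunit of glutamate-cysteine ligase, which carries out the limiting step (1424296_at), read 12.17, 12.23 and 12.16 in the empty vector arrays and 11.94, 11.97, 11.86 and 11.82 in the globin-labelled arrays. All 4 globin-labelled arrays lay below the 3 others, and the fall was 0.29 ± 0.05, or 1.22-fold (limma adjusted p = 0.00126). Its second probe set, 1455959_s_at, fell by 0.18 ± 0.05 (limma adjusted p = 0.0116). Gclm, the modifier subunit of the same ligase (1418627_at), read 11.61, 11.65 and 11.62 against 11.52, 11.47, 11.45 and 11.41. The groups did not overlap here either, and Gclm fell by 0.16 ± 0.04, or 1.12-fold (limma adjusted p = 0.0102). Gclm had no second probe set. Its call was lost with replicate number as a block in the fit, over replicates 1 to 3 (-0.15, limma adjusted p = 0.105). Gss, which adds the glycine (1448273_at), differed by -0.01 ± 0.04 (95% confidence interval -0.10 to 0.07, limma adjusted p = 0.802). Gsr, the reductase that recycles oxidised glutathione, differed by -0.14 ± 0.06 on 1421816_at and by -0.11 ± 0.04 on 1421817_at (limma adjusted p = 0.0868 and 0.0737), and the mean of the pair passed at -0.13 (limma adjusted p = 0.0208). Of these 4 genes 2 fell and 0 rose in limma, a share called (50%) not far from that of all genes (40.7%), and Gsr had an unadjusted p of 0.0393.

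Of the 3 glutathione peroxidases among the members, Gpx4 rose and the others did not pass (33.3% called, against 40.7% of all genes). Gpx4 encodes the selenoenzyme that reduces lipid peroxides within membranes and so guards against ferroptosis (1451695_a_at). It read 13.07, 13.21 and 13.25 in the empty vector arrays and 13.80, 13.64, 13.68 and 13.60 in the globin-labelled arrays. The groups were 0.35 apart at their nearest arrays, and the rise was 0.50 ± 0.06, or 1.42-fold (limma adjusted p = 0.000195). A second probe set of Gpx4, 1456193_x_at, gave the same size of rise, 0.50 ± 0.04 (limma adjusted p = 8.71e-06). Gpx1, the abundant cytosolic peroxidase (1460671_at), differed by -0.06 ± 0.04, and Gpx3, the secreted plasma form (1449106_at), by 0.07 ± 0.06 (limma adjusted p = 0.319 and 0.435). Gpx3 lay at percentile 24.8 of the mean levels of all probe sets.

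The glutathione transferases, which join glutathione to electrophiles, included 3 of the 4 members with the largest rises, beside the epoxide hydrolase gene Ephx1. Of 12 measured, 6 rose (50%, against 20.6% of all genes) and 1 fell (8.3%, against 20.1%). Gsto1, the omega-class enzyme that also reduces dehydroascorbate and removes glutathione from proteins (1456036_x_at), read 11.59, 11.50 and 11.50 in the empty vector arrays and 12.19, 12.35, 12.28 and 12.31 in the globin-labelled arrays. The lowest globin-labelled array lay 0.60 above the highest empty vector array, and the rise was 0.75 ± 0.05, or 1.69-fold (limma adjusted p = 4.69e-06). Its other probe set, 1416531_at, rose by 0.86 ± 0.04 (limma adjusted p = 6.88e-07). Gstm1, a mu-class enzyme (1416416_x_at), read 10.61, 10.75 and 10.82 against 11.45, 11.38, 11.38 and 11.37. It rose by 0.67 ± 0.05, or 1.59-fold (limma adjusted p = 1.76e-05), and its 3 other probe sets rose by 0.37 to 0.69. Gstm5, another mu-class enzyme (1416842_at), read 10.74, 10.73 and 10.74 against 11.31, 11.26, 11.36 and 11.19. With so narrow a spread among the empty vector arrays the groups stood 0.45 apart, and the rise was 0.54 ± 0.05, or 1.46-fold (limma adjusted p = 2.60e-05).

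Smaller rises were seen for Gstz1, Gsta4 and Gstt1. Gstz1, the maleylacetoacetate isomerase of tyrosine breakdown (1427552_a_at), read 9.73, 9.77 and 9.78 against 10.04, 10.09, 10.05 and 9.96 and rose by 0.28 ± 0.04 (limma adjusted p = 0.000837). Gsta4, which acts on the lipid peroxidation product 4-hydroxynonenal (1416368_at), read 7.49, 7.79 and 7.70 against 7.93, 7.83, 7.81 and 7.89. Its empty vector array 1 was the lowest of all 7, and the rise of 0.20 ± 0.07 was close to the threshold (limma adjusted p = 0.0427). Without that array it was 0.12 (limma adjusted p = 0.117), and it also missed the threshold without empty vector array 3 (0.22), with each of the 4 globin-labelled arrays left out in turn (0.18 to 0.22), and after quantile normalization (0.17). Gstt1, a theta-class enzyme (1418186_at), rose by 0.17 ± 0.05 (limma adjusted p = 0.0209), a call lost without empty vector array 1 (0.14, limma adjusted p = 0.0720), without globin-labelled array 2 (0.14, limma adjusted p = 0.0547) and after quantile normalization (0.13, limma adjusted p = 0.0555).

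Gstt2, the theta-class neighbour of Gstt1, went the other way. On 1417883_at it read 7.89, 8.01 and 7.90 in the empty vector arrays and 7.46, 7.38, 7.36 and 7.35 in the globin-labelled arrays. Every globin-labelled array was lower, by 0.43 at the least, and Gstt2 fell by 0.54 ± 0.05, or 1.46-fold (limma adjusted p = 2.59e-05). The 5 transferases that did not pass were Gstp1 (1449575_a_at, 0.11 ± 0.06), the peroxisomal and mitochondrial Gstk1 (1452823_at, 0.10 ± 0.06), Gstm2 (1416411_at, 0.01 ± 0.04) and the membrane enzymes Mgst1 (1415898_at, 0.01 ± 0.06) and Mgst3 (1448300_at, 0.01 ± 0.03). Without empty vector array 1 the value of Gstp1 was 0.05, and without empty vector array 2 that of Gstk1 was 0.04. Mgst1 lay under the 10th percentile of all probe sets, at 4.64 and 4.66, where a signal may be background. Gstm2 held exactly the same value on 5 of the 7 arrays and Mgst3 on 4. Of all probe sets 14.99% hold an equal value on 3 or more, and the shares for 4 and 5 arrays were not counted.

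**Figure D2:**
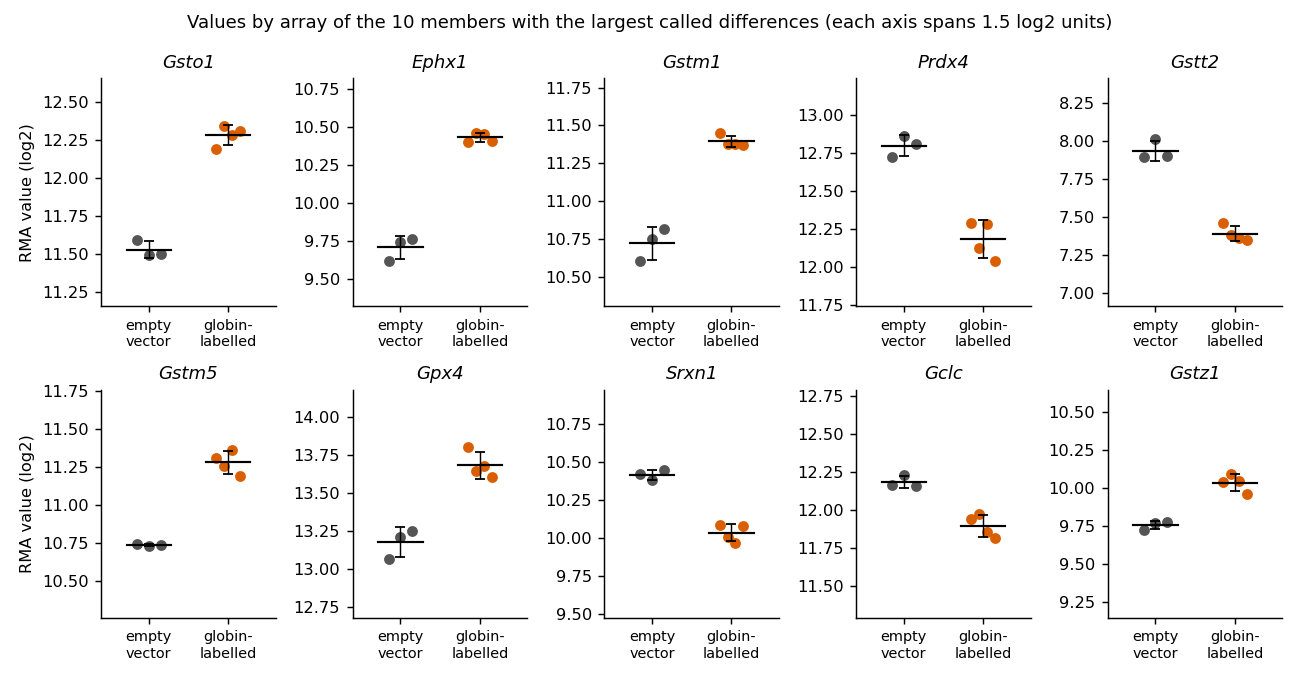
RMA value (log2, vertical axis) on each array for the 10 members with the largest differences that passed, with 3 empty vector arrays in grey and 4 globin-labelled arrays in orange. Horizontal lines are group means and bars the SD, and every panel spans the same number of log2 units. The groups do not overlap in any of the 10 panels, with globin-labelled arrays above for Gsto1, Ephx1, Gstm1, Gstm5, Gpx4 and Gstz1 and below for Prdx4, Gstt2, Srxn1 and Gclc.

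The mu-class genes lie side by side in the mouse genome, and they did not move by the same amount. In the RefSeq order, with no other measured gene between them, these genes are Gstm5, Gstm7, Gstm6, Gstm3, Gstm2, Gstm1 and Gstm4. Gstm6 rose most, by 1.21 ± 0.05 or 2.32-fold (limma adjusted p = 4.19e-07), and Gstm4 rose by 0.46 ± 0.04 (limma adjusted p = 5.22e-05). Gstm3, Gstm7 and Gstt3 are described because they complete the clusters, a choice made after their values were seen. Gstm3 rose by 0.15 ± 0.05 on its brighter probe set (limma adjusted p = 0.0406), a call lost without each of the empty vector arrays and without globin-labelled arrays 2, 3 and 4 (0.11 to 0.16) and after quantile normalization (0.11) or with a trended, robust variance model, and its other probe set differed by -0.01 ± 0.04. Gstm7 differed by 0.00 ± 0.05 on the brighter probe set (limma adjusted p = 0.966) and rose by 0.63 ± 0.06 on the dimmer (limma adjusted p = 3.33e-05), so that the 2 disagree. Gstm2, between Gstm3 and Gstm1, differed by 0.01 (95% confidence interval -0.07 to 0.09), with the same value on 5 arrays as given above. Of the theta-class row Gstt3, Gstt1 and Gstt2, Gstt3 fell by 0.36 ± 0.10 (limma adjusted p = 0.0172, and 0.0539 without empty vector array 1), the gene between rose and Gstt2 fell. The groups of Gstt3 overlapped, and it lay at percentile 16.7 of the mean levels of all probe sets, so its signal may be background. Mu-class transcripts resemble each other, and the deposited table does not show which probes cross-hybridise, so the values of single mu-class genes are uncertain.

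**Figure D3:**
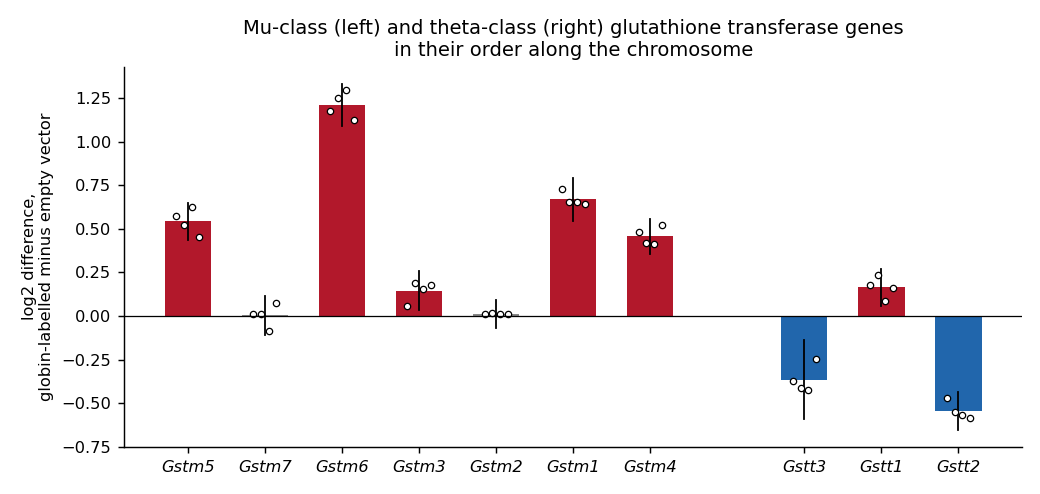
Log2 difference (bars, vertical axis) of the measured mu-class genes Gstm5 to Gstm4 and theta-class genes Gstt3 to Gstt2 in their order along the chromosome, each by its brightest probe set, with 95% confidence intervals as lines and the 4 globin-labelled arrays minus the empty vector mean as open points. Red bars rose, blue bars fell and grey bars did not pass. Gstm6 is the tallest bar, Gstm7 and Gstm2 lie at 0, and the theta-class bars point both ways.

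The glutaredoxins, small enzymes that use glutathione to reduce protein disulphides, did not pass (0 of 2, where 40.7% of all genes did). Glrx, the cytosolic form (1416593_at), differed by -0.08 ± 0.07, and Glrx2, which has mitochondrial and nuclear forms (1422998_a_at), by -0.01 ± 0.05 (limma adjusted p = 0.389 and 0.929). The unadjusted limma p of these 2 genes was 0.268 and 0.896, so 0 of 2 lay under 0.05. Of the 3 probe sets annotated to both Glrx3, which helps to assemble iron-sulphur proteins, and the predicted gene Gm12669, 2 rose, by 0.27 ± 0.08 each (limma adjusted p = 0.0205 and 0.0303). In both of these, empty vector array 1 was the lowest of the 7 (11.29 and 11.66).

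Within the thioredoxin system the mitochondrial pair rose and the cytosolic reductase fell. Of 5 genes 60% were called, against 40.7% of all genes. With replicate number as a block in the fit, over replicates 1 to 3, these 3 calls on the chosen probe sets were lost. The values were then 0.18 for Txn2, 0.18 for Txnrd2 and -0.13 for Txnrd1 (limma adjusted p = 0.0672, 0.0623 and 0.132). Txn2, mitochondrial thioredoxin (1455640_a_at), read 12.60, 12.53 and 12.63 in the empty vector arrays and 12.80, 12.75, 12.73 and 12.74 in the globin-labelled arrays. It rose by 0.17 ± 0.04, or 1.13-fold (limma adjusted p = 0.00944), and its 2 other probe sets rose by 0.20 and 0.25. Txnrd2, the reductase of the same compartment (1449097_at), read 9.63, 9.69 and 9.72 against 9.89, 9.84, 9.86 and 9.79. It rose by 0.16 ± 0.04 (limma adjusted p = 0.0142), while its second probe set, 1451936_a_at, differed by 0.08 ± 0.05 and did not pass. Txnrd1, the cytosolic selenoenzyme (1421529_a_at), read 12.90, 12.96 and 12.93 against 12.78, 12.82, 12.80 and 12.77. The fall of 0.14 ± 0.04 (limma adjusted p = 0.0168) was smaller than on its other probe sets, 1424486_a_at and 1424487_x_at, which fell by 0.47 ± 0.09 and by 0.36 ± 0.07. With empty vector array 2 left out, the brightest probe set missed the threshold (-0.12, limma adjusted p = 0.0587). Txn1, cytosolic thioredoxin (1416119_at), differed by -0.05 ± 0.04 (95% confidence interval -0.13 to 0.03, limma adjusted p = 0.324). Txnip, an arrestin-like protein that binds and inhibits thioredoxin and follows glucose supply, differed by 0.11 ± 0.06 on 1415997_at (limma adjusted p = 0.201) and rose by 0.17 ± 0.04 on 1415996_at (limma adjusted p = 0.00972).

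Prdx4 showed the largest fall of all members. Of the 4 peroxiredoxin and sulfiredoxin genes with a probe set of their own 1 rose and 2 fell (75% called, against 40.7% of all genes). Prdx4 encodes the peroxiredoxin of the endoplasmic reticulum, which uses the peroxide made there during disulphide formation (1416167_at). It read 12.72, 12.86 and 12.81 in the empty vector arrays and 12.29, 12.12, 12.28 and 12.04 in the globin-labelled arrays. The groups were 0.43 apart at their nearest arrays, and Prdx4 fell by 0.62 ± 0.07, or 1.53-fold (limma adjusted p = 0.000116). Its other probe sets fell by 0.65 ± 0.09 and by 0.44 ± 0.07. Srxn1, sulfiredoxin, which restores overoxidised peroxiredoxins (1426875_s_at), read 10.42, 10.38 and 10.45 against 10.09, 10.01, 9.97 and 10.08. It fell by 0.38 ± 0.04, or 1.30-fold (limma adjusted p = 0.000152), with falls of 0.38 and 0.37 on 2 further probe sets and 0.00 ± 0.05 on the dimmest, 1419942_at.

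The cytosolic and mitochondrial peroxiredoxins differed less. Prdx2, an abundant cytosolic form (1418506_a_at), read 13.09, 13.27 and 13.25 in the empty vector arrays and 13.40, 13.40, 13.41 and 13.35 in the globin-labelled arrays. It rose by 0.18 ± 0.05 (limma adjusted p = 0.0173), and its second probe set, 1430979_a_at, rose by 0.14 ± 0.04 (limma adjusted p = 0.0324). Prdx3, the mitochondrial form (1416292_at), did not pass in spite of groups that did not overlap (0.09 ± 0.04, limma adjusted p = 0.0828), and it did after quantile normalization (0.11, limma adjusted p = 0.0324). Of 5 probe sets annotated to both Prdx1, another cytosolic peroxiredoxin, and the predicted gene Gm21399, 2 fell, by 0.14 ± 0.05 and by 0.14 ± 0.04 (limma adjusted p = 0.0491 and 0.0264), and the others differed by -0.11 to 0.01. Counting these shared probe sets of Prdx1 and Glrx3, 13 of 41 members rose and 8 fell, where 20.6% of all genes rose and 20.1% fell. On the brightest of the Prdx1 probe sets the groups were only 0.0018 apart at their nearest arrays (limma adjusted p = 0.0491).

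Sod2 rose and Cat fell among the 4 genes of enzymes that act directly on superoxide and hydrogen peroxide (50% called, against 40.7% of all genes). Sod2, the manganese superoxide dismutase of mitochondria (1417193_at), read 12.02, 12.09 and 12.15 in the empty vector arrays and 12.39, 12.33, 12.29 and 12.23 in the globin-labelled arrays. It rose by 0.22 ± 0.05, or 1.17-fold (limma adjusted p = 0.00729), and by 0.30 ± 0.05 on 1448610_a_at, while the one with the lowest mean, 1417194_at, differed by -0.02 ± 0.04. Cat, the peroxisomal catalase (1416429_a_at), read 9.68, 9.58 and 9.56 against 9.09, 9.38, 9.41 and 9.46. Globin-labelled array 1 was the lowest by a wide margin, and the fall of 0.27 ± 0.08 (limma adjusted p = 0.0304) missed the threshold with each of the empty vector arrays left out in turn (-0.23, -0.28 and -0.29, limma adjusted p = 0.107, 0.0662 and 0.0557) and after quantile normalization (-0.24, limma adjusted p = 0.0541). The second probe set of Cat, 1416430_at, had a narrower spread and fell by 0.33 ± 0.05 (limma adjusted p = 0.000683). Sod1, the copper-zinc dismutase of the cytosol (1451124_at), differed by 0.11 ± 0.07, and Sod3, the extracellular form (1417634_at), by -0.03 ± 0.07 (limma adjusted p = 0.229 and 0.774). For Sod1 empty vector array 1 was the lowest of the 7, at 12.41, and without that array Sod1 differed by 0.02. The same array was the lowest for Prdx2, Gsta4 and several other members, among them Gpx4, Gstm1, Gstt1, Ephx1 and Sod2.

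Of the pair of enzymes that detoxify quinones and epoxides, only Ephx1 changed (50% called, against 40.7% of all genes). Ephx1, the microsomal epoxide hydrolase (1422438_at), read 9.62, 9.74 and 9.76 in the empty vector arrays and 10.40, 10.46, 10.45 and 10.40 in the globin-labelled arrays. The groups stood 0.64 apart, the widest gap of the 39 chosen probe sets, and the rise was 1.65-fold (limma adjusted p = 4.22e-06). Nqo1, a quinone reductase widely read as a marker of NRF2 activity (1423627_at), read 7.37, 7.29 and 7.28 against 7.33, 7.31, 7.53 and 7.48. The groups overlapped, and the difference was 0.10 ± 0.06 (95% confidence interval -0.04 to 0.24, limma adjusted p = 0.245). Nqo1 lay at percentile 31.8 of the mean levels of all probe sets, below the astrocyte marker Gfap (35.9), so its signal may be background.

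Most members with several probe sets had the same call on each, though for 8 of them this means that no probe set passed. How often the probe sets of other genes share a call was not counted. Of all 22626 probe sets taken singly, 39.5% passed. Of the 22 members with more than 1 probe set of their own, 9 changed in a single direction on all of them and 8 on none. For the other 5 genes (Txnrd2, Txnip, Srxn1, Sod2 and Keap1) some probe sets passed and some did not, and 0 members had probe sets that passed in opposite directions. The 20 members that did not pass on the chosen probe set differed on it by at most 0.14 in size. Their 95% confidence intervals reached no farther from 0 than 0.27, a bound that holds for the chosen probe sets only. On other probe sets of these genes the intervals reached -0.40 (Keap1, 1450747_at), 0.38 (Mgst1, 1415897_a_at) and 0.30 (Txn1, 1456734_at).

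**Figure D4:**
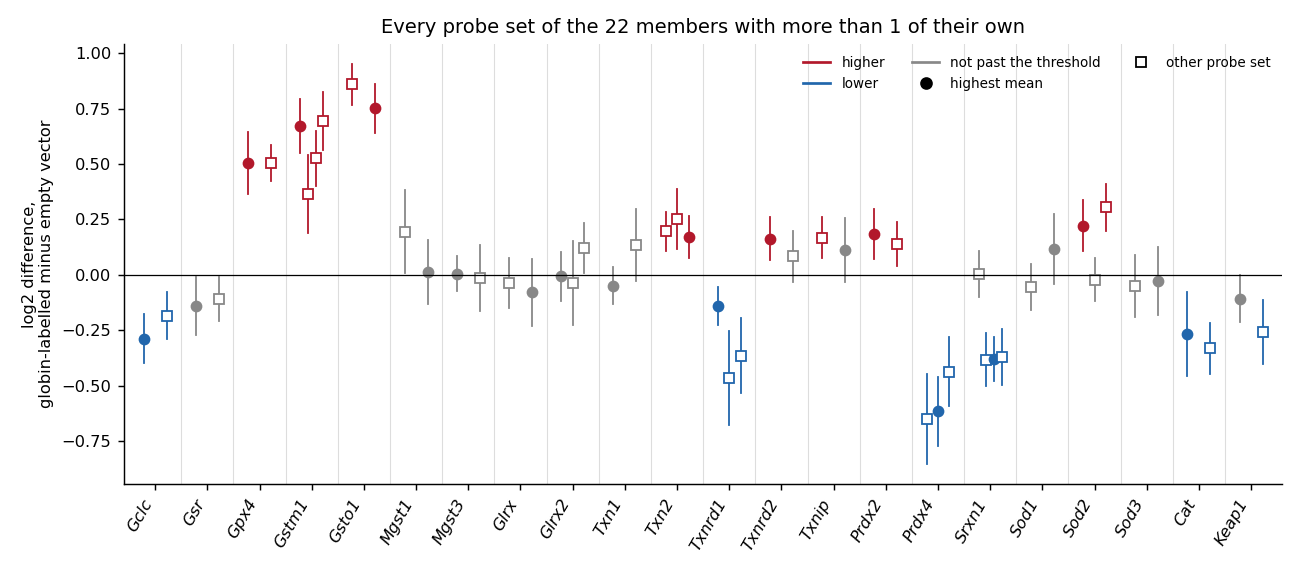
Log2 difference (vertical axis) for every probe set of the 22 members with more than 1 of their own, filled circles for the probe set with the highest mean and open squares for the others, with 95% confidence intervals as lines. Red rose, blue fell and grey did not pass. Gpx4, Gstm1 and Gsto1 are above 0 on each probe set, Gclc, Txnrd1, Prdx4 and Cat below, and Srxn1 and Sod2 each have 1 probe set near 0.

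The surrounding pathways moved both ways as well. Over 8 lists of related genes, 31 of 110 measured genes rose and 24 fell (50% called, against 40.7% of all genes; median 0.02). The lists, like the members, were written with earlier results of these data known.

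Of 17 genes of cystine uptake, cysteine supply and glutathione turnover 9 rose and 5 fell (median 0.13). At 82.4%, against 40.7% of all genes, this was the highest share called of the 8 lists. Cth, cystathionine gamma-lyase, which releases cysteine in the transsulphuration pathway, rose from 9.36 to 11.21, by 1.85 ± 0.04 or 3.60-fold (limma adjusted p = 9.67e-09). Cbs, which carries out the preceding step, rose by 0.63 ± 0.06 (limma adjusted p = 2.91e-05). Chac2, which breaks down glutathione, fell by 0.58 ± 0.05 (limma adjusted p = 3.97e-05). The subunits of the cystine importer are named after their values were seen. Slc3a2, the chain it shares with other amino acid transporters, rose by 0.26 ± 0.04 (limma adjusted p = 0.000602). Slc7a11, the chain that carries cystine, fell by 0.34 ± 0.08 (limma adjusted p = 0.00869), a call lost when empty vector array 1 and globin-labelled array 4 were both left out (-0.25, limma adjusted p = 0.0879). In the same cells the ligase subunits Gclc and Gclm, which use the cysteine, were lower as given above.

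Of 10 genes of NRF2 partners and NRF2 turnover 2 rose and 4 fell (60% called, against 40.7% of all genes, median -0.08). Mafg, a small MAF protein that pairs with NRF2 on DNA, fell by 0.32 ± 0.05, and Sqstm1, an autophagy receptor that binds KEAP1, fell by 0.33 ± 0.04 (limma adjusted p = 0.000477 and 0.000172). Bach2, a repressor that competes for the same sites, rose by 0.51 ± 0.08 (limma adjusted p = 0.000915), while the related Bach1 fell by 0.34 ± 0.06 and Maff, another small MAF, fell by 0.28 ± 0.05, both of the latter named after their values were seen.

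Among 18 other NRF2-target and detoxification genes 5 rose and 6 fell (61.1% called, against 40.7% of all genes, median -0.02). Akr1b8, an aldo-keto reductase, fell by 1.15 ± 0.04 or 2.23-fold (limma adjusted p = 8.81e-08), Aldh3a2, a fatty aldehyde dehydrogenase, fell by 0.41 ± 0.04 (limma adjusted p = 4.04e-05), and Cbr3, a carbonyl reductase, rose by 0.80 ± 0.05 (limma adjusted p = 3.33e-06). Genes of heme breakdown in this list are named after their values were seen. Hmox1, heme oxygenase 1, fell by 0.64 ± 0.08 or 1.55-fold (limma adjusted p = 0.000205). The biliverdin reductases went opposite ways, as Blvrb rose by 0.64 ± 0.07 and Blvra fell by 0.18 ± 0.04 (limma adjusted p = 0.000107 and 0.00642).

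Of 15 genes that supply NADPH 4 rose and 2 fell (median 0.06), and the share called, 40%, was close to that of all genes (40.7%). Idh2, the mitochondrial isocitrate dehydrogenase that makes NADPH, rose by 0.71 ± 0.05 or 1.63-fold (limma adjusted p = 1.26e-05), Tkt, transketolase, by 0.40 ± 0.04 (limma adjusted p = 9.38e-05) and Nadk, NAD kinase, by 0.18 ± 0.04 (limma adjusted p = 0.00422). The second probe set of Nadk did not pass (0.06 ± 0.05).

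Of 15 other glutathione transferases and peroxidases 5 rose and 2 fell (46.7% called, against 40.7% of all genes, median 0.09). Beside the mu-class genes above, Gpx8, a peroxidase of the endoplasmic reticulum, fell by 0.96 ± 0.07 or 1.95-fold (limma adjusted p = 6.81e-06). Of 8 measured Gpx genes, members included, 1 rose, 1 fell and 6 did not pass, among them Gpx7 (0.09 ± 0.08, limma adjusted p = 0.427). Of 16 other thioredoxin-fold and methionine sulfoxide repair genes 1 rose and 4 fell (31.2% called, under the 40.7% of all genes, median -0.09). Txndc12, an oxidoreductase of the endoplasmic reticulum, fell by 0.30 ± 0.04 (limma adjusted p = 0.000248). Msrb1, a selenoenzyme that repairs methionine sulfoxide, fell by 0.29 ± 0.04 (limma adjusted p = 0.000508). Tmx1, a membrane thioredoxin-like protein, fell by 0.28 ± 0.04 (limma adjusted p = 0.000566). In this list 11 genes did not pass, among them Txndc5 (0.05 ± 0.05) and Tmx2 (-0.04 ± 0.04, limma adjusted p = 0.502 and 0.498).

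Of 12 genes of superoxide sources and copper delivery 4 rose and 1 fell (41.7% called, close to the 40.7% of all genes, median 0.06). Ccs, the copper chaperone of Sod1, rose by 0.21 ± 0.04 (limma adjusted p = 0.00183), and the copper importer Slc31a1 rose by 0.25 ± 0.04 on its brighter probe set (limma adjusted p = 0.00163) with -0.02 ± 0.08 on the other, and the mean of both did not pass (0.12, limma adjusted p = 0.109). Oxr1, which protects neurons from oxidative damage, fell by 0.49 ± 0.06 (limma adjusted p = 0.000279). Of 7 genes of selenoprotein synthesis 1 rose and 0 fell (14.3% called, under the 40.7% of all genes, median 0.02). The riser was Pstk, a kinase of selenocysteine tRNA charging, by 0.13 ± 0.04 (limma adjusted p = 0.0349), a call lost without empty vector arrays 1 and 2 and globin-labelled arrays 2 and 3, each left out alone (0.11 to 0.13).

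**Figure D5:**
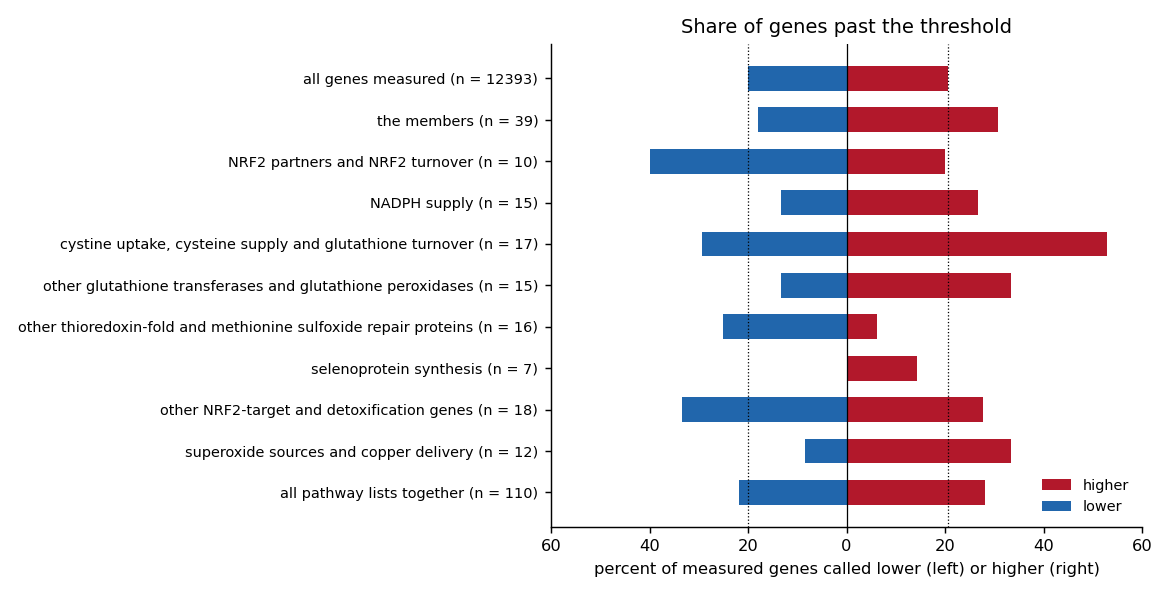
Percent of measured genes that rose (red, to the right) or fell (blue, to the left) among all genes, the 39 members, 8 lists of related genes and these lists together, with the number of measured genes in brackets. Dotted lines mark the shares over all genes, 20.6% higher and 20.1% lower. The list of cysteine supply and glutathione turnover reaches farthest to the right, and that of NRF2 partners farthest to the left.

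The genes beside each member are described to show its surroundings. For each member the median difference of the 5 measured genes on either side was taken, in the order of GRCm38.p6, and over 12367 genes this median lay between -0.16 and 0.17 from the 5th to the 95th percentile. It lay outside that range for 10 of the 39 members. The neighbours of Gsto1 had a median of 0.30, and 7 of the 10 rose while 0 fell. Those of Gclm had a median of 0.23 with 7 of 10 higher, while Gclm itself fell. Those of Gss had a median of -0.29 with 7 of 10 lower, while Gss did not pass. The others were Gstm1 (0.18), Gstm2 (0.19), Gstp1 (0.21), Mgst3 (0.18), Cat (-0.16), Nqo1 (-0.17) and Txnip (-0.19), where the neighbours of Gstm1 and Gstm2 include further mu-class genes. Of the 19 members that changed, 13 (68.4%) had the same sign as their neighbours' median, as had 62.3% of the 5039 changed genes that were placed. The part of neighbouring genes in these results was not tested.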

How the data were processed

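Per the labels' protocols, biotin-labelled cRNA was made from total RNA and hybridised to the arrays. The deposited values are on the log2 scale and come from RMA, as the submitters' processing notes record; neither its software nor a version is given in the sources used here. RMA makes the arrays' distributions alike, so it hides any shift common to most transcripts. Scanner files were not used here.

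The 64 array controls were left out, and 22626 probe sets were tested. The platform annotation gave 1 symbol for 20380, several for 691 and none for 1555. Groups were compared with limma 3.58.1 in R 4.3.3 (lmFit and eBayes with a term for group, two-sided p-values, Benjamini-Hochberg adjustment over the 22626), with a threshold of 0.05, no minimum fold and no filter on low values. The fit was tested on simulated data. The number of arrays limits the precision.

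The members and lists were chosen with earlier results of these data known. Named genes were all members with their probe sets, up to 3 changed genes of each list by smallest p, the adult globins, and the brightest gene of each marker list. Promoter windows came from RefSeq.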

Additional observations from a re-analysis of the deposited data

Results flagged for a closer look

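In a group of 4 arrays a single array was marked where its distance to the nearest of the others took up more of the group's range than Dixon's 95% critical value. This was asked of the 4 globin-labelled arrays for 83 genes or probe sets, chance marks about 1 in 20 groups, and 7 were marked. Globin-labelled array 2 stood apart for Gss (ratio 0.894; 9.50 against 9.56 in the others), for Gstm2 (ratio 1; 10.88 against 10.87) and for Mgst3 (ratio 1; 9.68 against 9.67). For Gstm2 and Mgst3 the ratio is 1 because the other 3 arrays hold exactly the same value, so any distance at all is marked. Globin-labelled array 1 was highest for Gstm1 (ratio 0.872; 11.45 against 11.37 to 11.38). Globin-labelled array 4 was lowest for Prdx2 (ratio 0.833; 13.35 against 13.40 to 13.41) and for Hmox1 (ratio 0.902; 9.09 against 9.37 to 9.40). Globin-labelled array 3 was lowest for Sod3 (ratio 0.842; 6.81 against 7.04 to 7.08).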

How the results depend on the processing

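Of the 19 members that changed, 11 kept their direction and stayed past the threshold under every alternative tried, 8 missed it under at least 1, and 0 changed sign. Of the 20 others 5 passed under at least 1. With an adjusted p under 0.01, 7 member calls were lost, and 4 members fell in place of 7. The rises lost were those of Gsta4, Gstt1, Txnrd2 and Prdx2, and the falls lost those of Gclm, Txnrd1 and Cat. Leaving out 1 array at a time gave 10 to 12 members higher, 5 to 7 lower, a median of the members of 0.0447 to 0.0818, and 7803 to 8271 probe sets (4407 to 4682 genes) called. The main fit did not treat replicate numbers as pairs. Deviations of same-numbered arrays from their group means correlated at -0.36, -0.30 and -0.14, and 0 of 3 empty vector arrays correlated best with their own number. With so few arrays, and deviations that are tied together by the group mean, these values cannot decide whether same-numbered arrays were handled together. With replicate number as a block, over replicates 1 to 3, 7 members rose in place of 12 and 5 fell; all genes called numbered 3590 in place of 5043. Sign changes were seen among genes that did not pass: Glrx2 (0.0026 with array medians subtracted, 0.0257 after quantile normalization and as the mean of its probe sets, 0.0126 with the replicate block, -0.0380 to 0.0126 without single arrays), Gss (0.0118 after quantile normalization, -0.0274 to 0.0008 without single arrays), Mgst1 (-0.0409 to 0.0919 without single arrays, -0.0234 with both arrays at one end of the second component left out, an alternative chosen after seeing the data), Sod3 (-0.0559 to 0.0371), Gstm7 (-0.0208 to 0.0346; -0.0352 after quantile normalization, -0.0208 with the replicate block, and a call at 0.31 as the mean of its probe sets), and, as the mean of their probe sets, Mgst3 (-0.0044) and Txn1 (0.0430). The Hba-a1 probe set (-0.0296 to 0.0682) and the markers Gfap (-0.0751 to 0.0112) and Dcn (-0.0512 to 0.0276) also changed sign without single arrays. Leaving out dim probe sets (which removed Mgst1), subtracting array medians, and a trended, robust variance model changed no call among the members. Signal over background was not measured, which limits Mgst1 most. It also limits Gpx3, Sod3, Nqo1, Gstt1, Glrx and Gstt2. Their means of 6.81 to 7.62 over all arrays lay below those of the markers Gfap (7.71) and Dcn (7.75). So did those of Gstt3 (6.09), Gstm3 (7.54) and Gstm7 (7.56) of the transferase clusters.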
